A study of Mus musculus with 68 samples.

Results

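Genes of oxidative protein folding in the endoplasmic reticulum (ER) were followed in mouse embryonic fibroblasts (MEFs, primary fibroblasts grown from embryos) exposed to tunicamycin (TM). The set held 9 genes chosen by name, the protein disulfide isomerases Pdia3, Pdia4, Pdia6 and P4hb, the oxidases Ero1l and Ero1lb (now Ero1a and Ero1b), the thioredoxin domain proteins Txndc5 and Txndc11 and the peroxiredoxin Prdx4. All 9 were listed in both sets of libraries, among 13197 genes in the founder strains and 12803 in the F1 crosses.

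The cells came from the 8 inbred founder strains of the Collaborative Cross, A/J (A), C57BL/6J (B6), 129S1Sv/ImJ (129), NOD/ShiLtJ (NOD), NZO/H1LtJ (NZO), CAST/EiJ (CAST), PWK/PhJ (PWK) and WSB/EiJ (WSB), and from 5 F1 crosses of a B6 mother with a 129, NOD, NZO, CAST or WSB father (x129, xNOD, xNZO, xCAST and xWSB). TM cells received 2 ug/ml of TM for 4 h, and control cells received 0.1% DMSO, the solvent of TM, for the same time. The labels name no engineered allele in any group. RNA was sequenced from 40 founder libraries (3 control and 3 TM in A and PWK, 2 and 2 in B6 and CAST, 2 and 3 in 129, NOD, NZO and WSB) and 28 F1 libraries (3 and 3 in x129, xNZO and xWSB, 2 and 3 in xCAST, 3 and 2 in xNOD). The MEFs of a genotype were pooled from several female embryos of 1 litter, so a genotype and its cell preparation cannot be told apart, and p-values measure the spread between parallel cultures. The authors had dropped libraries that stood apart from their own condition, so this spread is that of the libraries kept.

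Disulfide bonds form in the ER lumen when oxidized protein disulfide isomerases (PDIs) pass their disulfide to a folding protein. Ero1 oxidases recharge the PDIs with molecular oxygen and release hydrogen peroxide, which Prdx4 can in turn use to oxidize PDIs. TM blocks the first step of N-linked glycosylation, and the misfolded glycoproteins that result activate the unfolded protein response (UPR), whose transcription factors Atf6, Xbp1 and Atf4 raise many genes of ER folding.

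In GRCm38 the genes lie at chr2:121413775-121438687 (Pdia3, ENSMUSG00000027248), chr6:47796141-47813430 (Pdia4, ENSMUSG00000025823), chr12:17266545-17284770 (Pdia6, ENSMUSG00000020571) and chr11:120560298-120573253 (P4hb, ENSMUSG00000025130). Ero1l (ENSMUSG00000021831) lies at chr14:45283087-45318771, Ero1lb (ENSMUSG00000057069) at chr13:12565874-12611396, Txndc5 (ENSMUSG00000038991) at chr13:38500079-38528824, Txndc11 (ENSMUSG00000022498) at chr16:11074911-11134650 and Prdx4 (ENSMUSG00000025289) at chrX:155323918-155340754. The annotation used for counting is not given in the sources used here, and lengths below are those of GENCODE M21 exons. These exons overlap those of Catsper2 by 18 bases in Pdia3, of Mir704 by 14 in Pdia4, of Atp6v1c2 by 50 in Pdia6 and of Snn by 75 in Txndc11.

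Promoters are shown for the 4 genes with a match to an element searched below, Ero1lb, Pdia6, Txndc11 and Txndc5. Ero1lb, Pdia6 and Txndc11 were higher with TM in all 13 genotypes, and so were Pdia3, Pdia4, P4hb and Ero1l, which had no match. Txndc5 was higher in none. UPR factors are known to bind the ER stress response element (ERSE, searched as CCAAT, any 9 bases and CCACG), ERSE-II (ATTGG, any 1 base and CCACG), the UPR element (UPRE, core TGACGTGG) and the amino acid response element (CARE, TGATGNAA). RefSeq windows in GRCm38.p6 from 250 bases before to 50 after each start were searched on both strands, and all 9 genes matched, with 12 windows (3 for Txndc5 and 2 for Txndc11). The end of ERSE and of ERSE-II, CCACG, also lies in the UPRE core on the other strand. Of 32851 windows, 0.119% held ERSE, 0.0365% ERSE-II, 0.676% the UPRE core and 3.97% CARE. ERSE was found for Pdia6, with its first base at -98 from the start, and for Ero1lb at -201 on the other strand, the UPRE core for Txndc11 at -102 and for 1 of 3 Txndc5 starts at -138, and CARE for another Txndc5 start. ERSE-II was in no window, and none of the 4 elements was in those of Pdia3, Pdia4, P4hb, Ero1l or Prdx4. The windows follow 5′ to 3′ on the strand of the gene, with the matched element in capitals.
Pdia6, chr12:17266339-17266638, plus strand: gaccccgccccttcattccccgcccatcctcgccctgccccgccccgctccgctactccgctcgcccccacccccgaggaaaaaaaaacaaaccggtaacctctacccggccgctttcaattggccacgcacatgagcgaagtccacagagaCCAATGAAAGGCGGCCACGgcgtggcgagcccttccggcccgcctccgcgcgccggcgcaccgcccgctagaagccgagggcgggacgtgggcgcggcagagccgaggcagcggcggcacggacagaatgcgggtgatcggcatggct
Ero1lb, chr13:12565633-12565932, plus strand: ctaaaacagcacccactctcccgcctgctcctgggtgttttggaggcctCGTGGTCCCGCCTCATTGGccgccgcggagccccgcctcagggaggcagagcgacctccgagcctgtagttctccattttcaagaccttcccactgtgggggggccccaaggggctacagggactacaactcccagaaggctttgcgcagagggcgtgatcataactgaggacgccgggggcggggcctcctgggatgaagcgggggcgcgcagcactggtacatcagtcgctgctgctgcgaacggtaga
Txndc11, chr16:11134483-11134782, minus strand: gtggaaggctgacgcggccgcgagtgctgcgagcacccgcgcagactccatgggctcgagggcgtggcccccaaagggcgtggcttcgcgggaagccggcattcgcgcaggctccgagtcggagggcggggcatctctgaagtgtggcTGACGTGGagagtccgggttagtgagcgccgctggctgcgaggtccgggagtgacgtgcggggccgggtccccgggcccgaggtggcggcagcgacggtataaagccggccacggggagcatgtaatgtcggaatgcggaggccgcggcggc
Txndc5, chr13:38527865-38528164, minus strand: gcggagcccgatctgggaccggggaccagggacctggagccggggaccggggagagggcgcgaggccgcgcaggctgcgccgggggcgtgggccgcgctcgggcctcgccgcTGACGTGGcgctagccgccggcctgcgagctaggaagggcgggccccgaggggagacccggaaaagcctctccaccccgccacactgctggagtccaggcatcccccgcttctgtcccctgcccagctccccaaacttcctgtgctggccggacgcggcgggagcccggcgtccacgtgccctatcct

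Recovered reads on genes ranged from 7091923 to 21530282 in the founder libraries and from 6442976 to 29528457 in the F1 libraries, with founder medians of 14072068 in control and 10730220 in TM libraries. Values below are the authors' normalized signal, reads per gene on a common library scale, and they are not divided by gene length. All 8 fibroblast markers tested (Col1a1, Vim and others) were listed, with a summed signal of 19910 to 54672 in founder controls and 16917 to 48511 with TM. Summed over the listed genes, 7 of 8 myeloid markers reached 7.65 to 59.7 in founder controls and 5.73 to 43.6 with TM, and 5 of 5 endothelial markers 3.13 to 19.9 and 1.67 to 11.9. The 4 of 5 epithelial markers listed summed to 32.0 to 132 in founder controls and 23.8 to 118 with TM. In the F1 libraries the fibroblast markers summed to 20315 to 33996 in controls and 13089 to 29951 with TM. Only 3 of 8 myeloid markers were listed there (4.79 to 18.4 and 2.86 to 10.9) and 3 of 5 epithelial markers (3.39 to 63.2 and 6.82 to 55.6). The 5 endothelial markers summed to 1.00 to 19.0 and 1.54 to 6.84. The median library had 37256 for the fibroblast markers in founder controls and 26592 with TM. The part of this shift in the results was not tested. The libraries farthest from the others of their group were A TM replicate 2, A control replicate 1, xWSB control replicate 1 and NZO TM replicate 3, with median differences over genes of 0.46, 0.44, 0.42 and 0.41 on the log2 scale.

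The genes spanned a wide range of levels. Per kilobase of annotated exon, the founder control level was highest for P4hb (437 ± 61.4, SD of 8 strain means) and Pdia3 (282 ± 24.9). Txndc5 (116 ± 16.0), Pdia6 (113 ± 17.4) and Pdia4 (98.2 ± 19.1) followed, and these neighbours did not differ beyond their spread. Prdx4 (31.9 ± 5.29), Ero1l (18.2 ± 3.26) and Txndc11 (4.66 ± 0.318) were lower, and Ero1lb was lowest at 0.676 ± 0.124. Using the longest transcript instead of all exons, Pdia6 and Txndc5 came to 195 and 184 signal per kilobase and Prdx4 to 65.5. With TM, per kilobase of all exons, P4hb (564 ± 73.0) and Pdia3 (548 ± 55.9) differed by less than their SD. Pdia4 (293 ± 36.5) lay above Pdia6 (240 ± 32.8), and Ero1lb (2.92 ± 0.307) was still the lowest. The order of Pdia4 and Pdia6 depended on the length used and was turned with the longest transcript. That transcript has 2175 bases in Pdia6, against 3745 of all exons, and Pdia4 has 2399 by either measure.

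**Figure D1:**
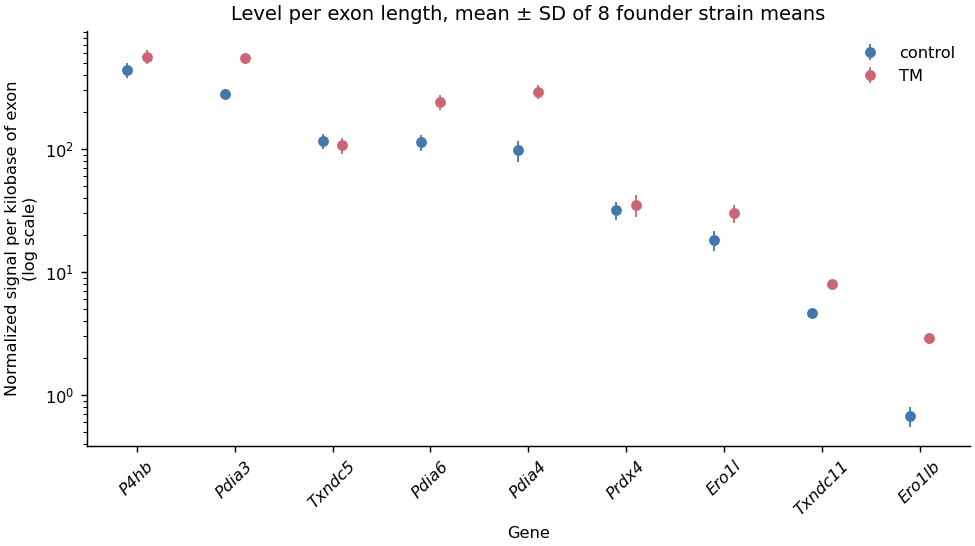
Normalized signal per kilobase of exon (log axis) of the 9 genes in founder control and TM cells. Points are means of 8 strain means and bars are SD, and Ero1lb lies lowest in both conditions, at 0.676 and 2.92.

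Cells with and without TM were set against each other inside each genotype, to ask which of these genes responded and whether the response depended on genotype. A gene was called when limma gave a Benjamini-Hochberg adjusted p below 0.01 over all genes tested in that genotype and the change was at least 1.5 fold. Of 72 gene by strain comparisons in the founders, 32 were called higher and 0 lower, and of 45 gene by cross comparisons in the F1 set, 23 were called higher and 0 lower. The median log2 change of the 9 genes lay between 0.65 and 0.91 over the founders and between 0.58 and 0.83 over the crosses, where the median of all genes lay between -0.04 and 0.01 and between -0.06 and 0.00. Together the 9 genes took 0.320% to 0.399% of the gene signal in founder control means and 0.521% to 0.638% with TM. In bulk RNA, more RNA per cell and more cells with that RNA cannot be told apart.

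The count of calls is given beside the share of all genes that passed in the same genotype. Of the 9 genes, 6 were called higher in B6 (5.04% of all genes tested), PWK (6.36%) and WSB (2.85%), 5 in CAST (2.54%) and 4 in NOD (1.45%). In A and NZO 2 were called (0.346% and 0.32% of all genes) and in 129 only Ero1lb (0.315%). Among the crosses, 6 were called in x129 (4.88%) and xNZO (1.44%), 5 in xNOD (3.69%), 4 in xCAST (2.52%) and 2 in xWSB (0.185%). The shares of all genes called lower, where none of the 9 was, were 0.00787% in 129, 0.00786% in A, 3.22% in B6, 0.478% in CAST, 0.165% in NOD, 0.0078% in NZO, 4.3% in PWK and 4.2% in WSB. In x129, xCAST, xNOD, xNZO and xWSB they were 1.36%, 1.2%, 4.6%, 0.152% and 0.0161%. In xWSB, where same-numbered control and TM libraries deviated together in all 3 pairs, a replicate block left 0 of the 9 genes called (adjusted p = 0.0237 for Ero1lb and 0.0133 for Pdia4, limma). The median residual SD over genes was 0.35 on the log2 scale in A and 0.31 in xWSB, against 0.10 in B6. When each library was left out in turn, the count was 6 every time in B6, PWK and x129. It became 0 in A without any of its 6 libraries, 0 in NZO without any of 4 libraries but 6 without NZO TM replicate 3, and 0 to 4 in 129. It ranged from 1 to 5 in NOD, from 2 to 6 in CAST, from 4 to 6 in WSB, from 3 to 6 in xCAST and from 2 to 6 in xNZO, it was 0 or 1 in xWSB, and in xNOD it was 0 without any 1 of its 3 controls and 5 or 7 without a TM library.

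**Figure D2:**
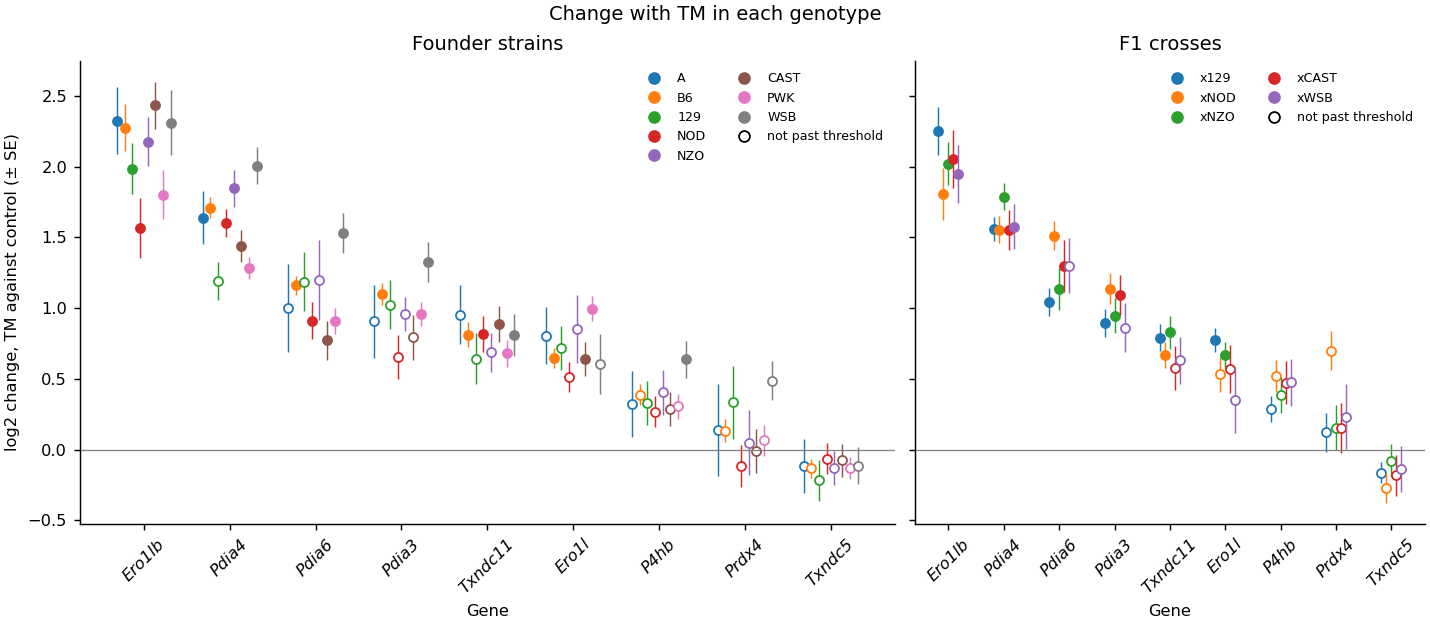
log2 change with TM (y axis, ± SE) of the 9 genes in 8 founder strains (left) and 5 F1 crosses (right). Filled points pass the threshold and open points do not, and the order from Ero1lb, with means of 2.11 and 2.02, down to Txndc5, with means of -0.12 and -0.17, is alike in both panels.

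Ero1lb had the largest change of the 9 in 7 of 8 founder strains and 5 of 5 crosses, and Pdia4 the second largest in the same 7 strains and 5 crosses. In NOD the order of this pair was turned, with 1.60 ± 0.10 (SE) for Pdia4 and 1.57 ± 0.21 for Ero1lb. Txndc5 had the lowest change in 7 of 8 strains and 5 of 5 crosses. The changes were measured on a log2(signal + 0.1) scale, which lowers the fold of weakly expressed genes slightly.

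Of the oxidases, Ero1lb, the form known mainly from secretory cells such as pancreatic islets, was the most changed and the least abundant. In B6 its signal was 4.42 and 3.34 in control and 19.9 and 18.2 with TM. In CAST it was 3.73 and 4.28 in control and 21.2 and 22.9 with TM. In NOD, where the change was smallest, it was 7.08 and 4.79 in control and 18.8, 19.6 and 14.4 with TM. In each of the 8 strains and 5 crosses every TM library lay above every control library, a separation found in all 8 strains for 4.54% of genes and in all 5 crosses for 4.86%. The fold change ran from 2.96 in NOD to 5.40 in CAST, and from 3.49 in xNOD to 4.76 in x129. Ero1lb was called in all 8 strains (adjusted p 2.59e-08 to 0.00741, limma) and all 5 crosses (2.24e-05 to 0.00521, but 0.0237 in xWSB with the replicate block), and ranked 27th to 92nd of all genes tested by change in the founders. These values rest on 27 to 148 reads per control library and 126 to 417 per TM library. Its promoter window is 1 of the pair with an ERSE match, at -201. Leaving out 1 library at a time, the call stood in 24 of 40 founder fits and 19 of 28 F1 fits, while the log2 change stayed between 1.29 and 2.59 and between 1.67 and 2.37.

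Ero1l, the broadly expressed oxidase, had a mean log2 change of 0.72 over the founders, against 2.11 for Ero1lb. In B6, its highest strain, the signal was 135 and 129.6 in control and 210.0 and 204 with TM, and in PWK it was 88.4, 97.6 and 100.0 in control and 199, 198 and 175 with TM. Control and TM libraries of Ero1l were apart in 8 of 8 strains, where 10.5% to 32.6% of all genes had every TM library higher within a strain. Ero1l libraries overlapped in 1 of 5 crosses, xWSB, with controls of 74.3, 100.2 and 121 and TM libraries of 154, 114 and 107. The fold change was 1.43 in NOD to 2.00 in PWK, and it was called in B6 (adjusted p = 4.64e-06, limma), CAST (0.00984), PWK (3.66e-06), x129 (0.000288) and xNZO (0.00756). NZO TM replicate 3 stood at 97.9, below the 161 and 158 of the other NZO TM libraries, and Ero1l was called in NZO without it.

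Among the PDIs, Pdia4 (ERp72), which carries an extra thioredoxin domain, changed most. In WSB its signal was 179 and 202 in control and 750.4, 736 and 811 with TM. In NZO it was 218 and 227 in control and 771, 743 and 903 with TM. In B6 it was 236 and 213 in control and 764 and 706 with TM. These are the strains with the largest changes, 4.02 fold in WSB, 3.60 in NZO and 3.27 in B6. In A, the signal was 246, 226 and 217 in control and 733, 668 and 747 with TM. In NOD it was 204 and 200.2 in control and 629, 605 and 605 with TM, and in CAST it was 205 and 203 in control and 563 and 543 with TM. A, NOD and CAST changed 3.12, 3.03 and 2.71 fold. In 129 the signal was 297 and 284 in control and 637, 676 and 681 with TM, and in PWK it was 320.4, 324 and 316 in control and 799, 769.6 and 769.5 with TM. These strains had the highest controls and the smallest changes, 2.29 fold in 129 and 2.43 in PWK.

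Pdia4 was called in 7 of 8 strains (adjusted p 4.56e-11 to 0.0058, limma) and in 5 of 5 crosses (1.85e-06 to 0.00431, but 0.0133 in xWSB with the replicate block), and in 129 it missed the threshold at adjusted p = 0.0107. In 129 it was called without TM replicate 1 and without TM replicate 3. It was the only one of the 9 genes whose change differed between founder strains in the strain by treatment interaction (moderated F test in limma, adjusted p = 0.00464, where 0.174% of 13197 genes passed). The adjusted p of the other 8 genes was 1. The WSB change exceeded that of 129 by 0.81 on the log2 scale (95% interval 0.54 to 1.08) and that of PWK by 0.72 (0.47 to 0.98), and the NZO change exceeded that of PWK by 0.56 (0.31 to 0.82). 129 and PWK differed by 0.09, with an interval from -0.16 to 0.34. These pairs were taken from the ends of the order of strains, and the intervals were not adjusted for the number of possible pairs. The call was lost in edgeR on recovered reads (adjusted p = 0.0318) and in 14 of 40 fits that left out 1 library (highest adjusted p = 0.0263, without 129 control replicate 2). The edgeR test also lacked PWK TM replicate 2 and WSB TM replicate 1, for which no reads were recovered. In limma the adjusted p was 0.0121 without the first of these and 0.00784 without the second. The changes and the control levels share the control libraries.

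**Figure D3:**
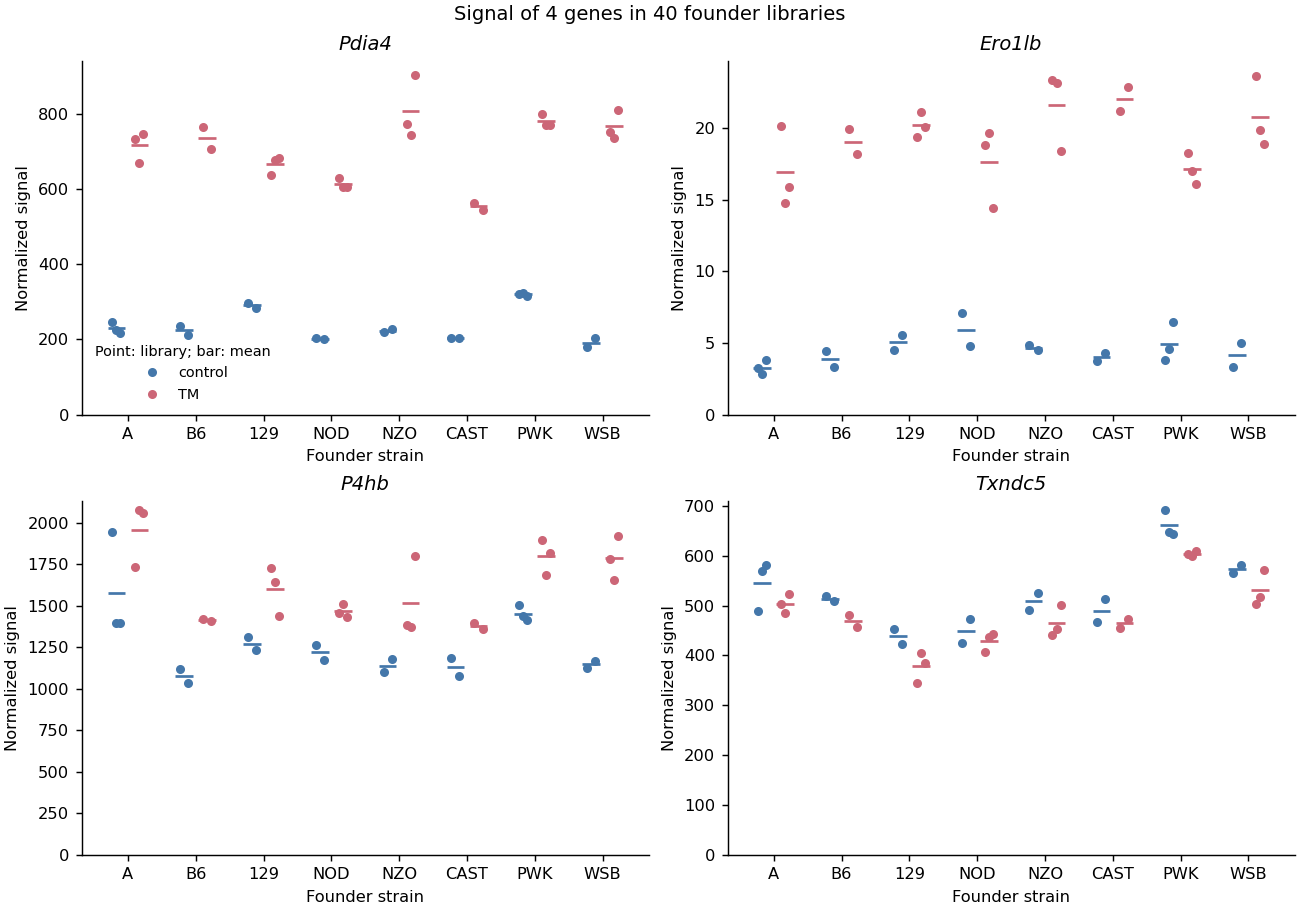
Normalized signal (y axis, from 0) of Pdia4, Ero1lb, P4hb and Txndc5 in each founder library by strain, with control in blue and TM in red. Points are libraries and bars are means, and the Pdia4 controls of PWK (316 to 324) and 129 (284 and 297) lie above those of the other 6 strains.

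Pdia3 (ERp57), the PDI that works with calnexin and calreticulin on glycoproteins, had a mean change of 1.95 fold over the founders. Its control signal was 723 to 1296 over 18 founder libraries (median 857) and its TM signal 1388 to 2169.8 over 22 (median 1708), and within each strain the libraries did not overlap. In NOD the controls were 1184 and 827 and the TM libraries 1638, 1515 and 1520.4, and in A control replicate 1 stood at 1296 against 803 and 768. The fold change was 1.57 in NOD to 2.51 in WSB, called in B6, PWK and WSB (adjusted p 2e-08 to 0.000396, limma) and in 4 of 5 crosses. Pdia6 (P5), a PDI that associates with the chaperone BiP, had control signals of 335 to 796 (median 395) and TM signals of 642 to 1243 (median 858). The high control of 796 was again A control replicate 1, against 406 and 399 in the other A controls, and the highest NZO value was TM replicate 3, at 1198 against 691 and 642. Pdia6 changed 1.71 fold in CAST to 2.89 fold in WSB and was called in B6, CAST, NOD, PWK and WSB (adjusted p 2.23e-09 to 0.00792) and in 4 of 5 crosses. The other ERSE match, at -98, was in the Pdia6 window. Every Pdia3 and Pdia6 TM library lay above every control of its genotype in all 13 genotypes. Within a strain 10.5% to 32.6% of all genes were separated in this way, and within a cross 9.9% to 27.8%. The shares for all strains together and all crosses together are those given with Ero1lb.

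P4hb is the founding PDI and the beta subunit of collagen prolyl 4-hydroxylase. Among Pdia3, Pdia4, Pdia6 and P4hb, P4hb was the most abundant in control cells and changed least. Its signal was 1121 and 1036 in B6 controls and 1419 and 1406 with TM, and 1127 and 1165 in WSB controls and 1784, 1654 and 1921 with TM. It was higher with TM in 8 of 8 strains and 5 of 5 crosses, by 1.20 fold in NOD to 1.56 fold in WSB. Only WSB was called (adjusted p = 0.00908, limma), and that call was lost when any of the 5 WSB libraries was left out. In B6 the adjusted p was 0.00065, but the 1.31 fold change was under the 1.5 fold limit. Its TM libraries all lay above its controls in 7 of 8 strains and 5 of 5 crosses. A was the strain where they overlapped, with controls of 1945, 1393 and 1393 and TM libraries of 1729.9, 2077 and 2055. Every TM library lay above every control for 10.5% to 32.6% of all genes within a strain, and for 9.9% to 27.8% within a cross.

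Txndc11, a membrane-bound thioredoxin domain protein that interacts with ER-associated degradation factors, was higher with TM in all 13 genotypes with no overlap. Its control signal was 34.4 to 48.0 and its TM signal 55.8 to 89.9 in the founders. The change was 1.56 fold in 129 to 1.94 fold in A, called in B6, CAST, NOD, PWK and WSB (adjusted p 2.16e-06 to 0.00848, limma) and in x129, xNOD and xNZO. Its strain means were the closest of the 9 genes with TM, the highest being 1.24 times the lowest. Prdx4, the ER peroxiredoxin, was 70.4 and 67.6 in WSB controls and 100.4, 91.8 and 98.4 with TM (log2 change 0.49, adjusted p = 0.0358), and 44.3, 53.9 and 42.1 in xNOD controls and 81.5 and 69.9 with TM (1.62 fold, adjusted p = 0.0141). In NOD the means were 82.4 ± 19.3 (SD, n = 2) in control and 74.9 ± 2.32 (n = 3) with TM. Prdx4 libraries overlapped in 6 of 8 strains and 4 of 5 crosses, and it was called in none of the 13 genotypes. The share of all genes with every TM library above every control was 22.9% in 129, 10.5% in A, 32.6% in B6, 28.7% in CAST, 18.4% in NOD, 19.3% in NZO, 21.7% in PWK and 25.7% in WSB. In x129, xCAST, xNOD, xNZO and xWSB it was 21.8%, 21.1%, 27.8%, 16.4% and 9.9%.

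Txndc5 (ERp46) was the gene with no increase in any genotype. Its mean log2 change was below 0 in 8 of 8 strains, from -0.22 in 129 to -0.06 in NOD, and in 5 of 5 crosses, from -0.27 in xNOD to -0.08 in xNZO. None passed the threshold (lowest adjusted p 0.158 in the founders and 0.0893 in the crosses, limma). In PWK the controls were 692, 648 and 643 and the TM libraries 603, 599.7 and 609, and in B6 they were 519 and 509 in control and 481 and 457 with TM. Every TM library lay below every control in 3 of 8 strains and 3 of 5 crosses, where 31.6% of all genes did so in 3 or more strains and 15.5% in 3 or more crosses. The same separation was found for 3.3% of genes in all 8 strains and for 3.55% in all 5 crosses. Within a genotype the share of genes with every TM library below every control was 20.9% in 129, 10.5% in A, 34.2% in B6, 32.2% in CAST, 21.1% in NOD, 21.9% in NZO, 23.4% in PWK, 25.3% in WSB, 18.8% in x129, 25.7% in xCAST, 33.4% in xNOD, 15.0% in xNZO and 8.59% in xWSB. The upper 95% limit of the log2 change was at most 0.32 over the founders, in A. The order of the strain means was the same in control and TM cells, from 129 through NOD, CAST, NZO, B6, A and WSB to PWK. Some neighbours were not apart. CAST, NZO and B6 had TM means of 464, 465 and 469, and their libraries overlapped in both conditions. The Txndc5 exons share 224 bases with Bmp6 and 311 bases with the antisense gene Gm31834, both on the other strand, and the counting strand was not given in the sources used here.

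Control levels were compared between genotypes to ask whether strains differed before TM. In the founder set 3 of the 9 genes differed between strains (moderated F test in limma, adjusted p below 0.01, passed by 37.2% of all genes). Pdia4 ranged from 191 ± 16.6 (SD, n = 2) in WSB to 320.0 ± 3.95 (n = 3) in PWK (adjusted p = 2.18e-07), and Txndc5 from 438 ± 22.2 (n = 2) in 129 to 661 ± 27.2 (n = 3) in PWK (9.73e-05). P4hb ranged from 1079 ± 60.4 (n = 2) in B6 to 1577 ± 319 (n = 3) in A (0.00574), and was not past the threshold in a fit of controls alone (adjusted p = 0.0202), nor in 7 of 40 fits that left out 1 library (A control replicate 1, B6 control replicate 3, CAST control replicate 3, NZO control replicate 2 or any PWK control). Ero1l, with libraries at 75.4 and 74.5 in NZO and 135 and 129.6 in B6, missed the threshold at 0.0264 and passed it in the controls-only fit at 0.00508. The adjusted p was 0.0352 for Ero1lb and 0.3 or more for Pdia3, Pdia6, Txndc11 and Prdx4. For Pdia4, 4 of the 7 pairs of neighbouring strains in the order of control means overlapped in their libraries, and the libraries were apart between CAST and NZO, between A and 129 and between 129 and PWK. In the F1 set 0 of the 9 genes passed for control level (24.8% of all genes, lowest adjusted p 0.0355 for Pdia4), where an unadjusted p below 0.05 was reached by 5 genes, and edgeR on recovered reads gave 0 too.

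The F1 crosses were set beside their parents without a test, and founders and crosses were fitted as separate sets. For Pdia4 the log2 changes in B6 and 129 were 1.71 and 1.19 and that of x129 was 1.56, and for xNZO the parents had 1.71 and 1.85 and the cross 1.79. For xWSB the parents had 1.71 and 2.01 and the cross 1.58. Ero1lb was 2.28 in B6, 1.57 in NOD and 1.80 in xNOD, and Pdia6 was 1.16 in B6, 0.91 in NOD and 1.51 in xNOD. Of 45 gene by cross values, 13 lay between the parental values, 11 above both and 21 below both. The same split over all genes is not given here, and all crosses share the B6 value, so the 45 are not independent. Some margins were small. P4hb in xNZO, at 0.386, counted as below both 0.390 in B6 and 0.405 in NZO. The interaction of cross and treatment passed for 0 of the 9 genes (0.0547% of 12803 genes, lowest adjusted p 0.79), with 0 at an unadjusted p below 0.05 and 0 in edgeR on recovered reads. The range of the Pdia4 change over crosses was 1.55 to 1.79, against 1.19 to 2.01 over founders.

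**Figure D4:**
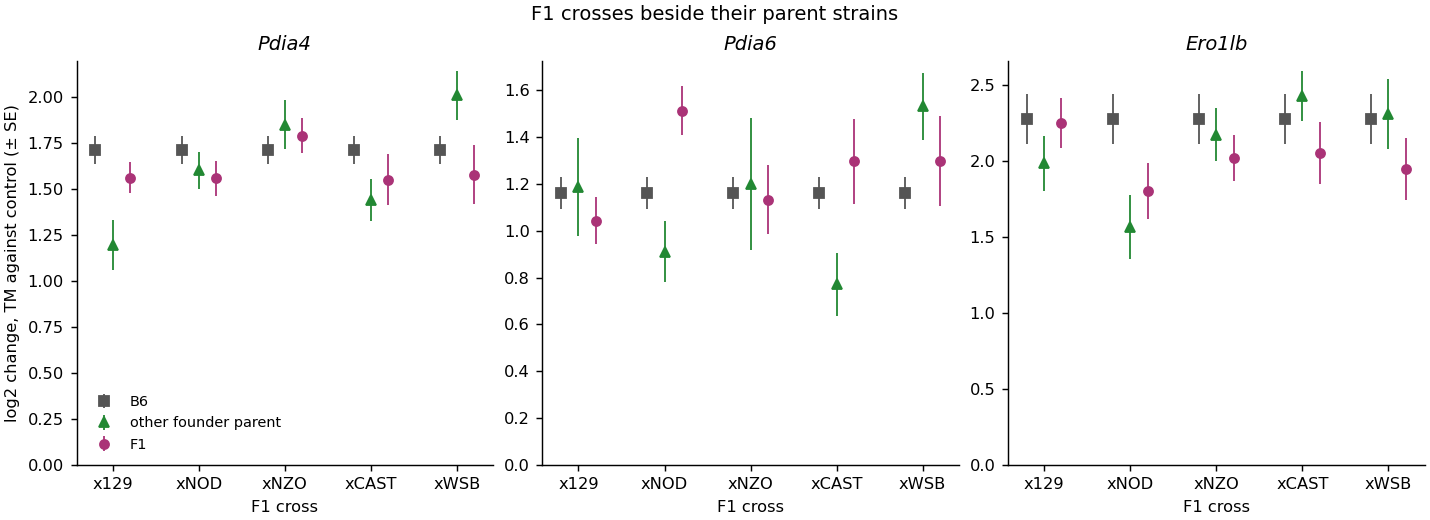
log2 change with TM (y axis, ± SE) of Pdia4, Pdia6 and Ero1lb in 5 F1 crosses (circles) beside B6 (squares) and the other founder parent (triangles). For Pdia4 in x129 the cross, at 1.56, lies between 129 at 1.19 and B6 at 1.71.

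Other genes of ER folding were taken as fixed lists. As background, 40 of 12702 genes (129) to 810 of 12730 (PWK) were called higher within a strain. Within a cross it was 23 of 12413 (xWSB) to 603 of 12358 (x129). Of the ER chaperones, 8 genes that include BiP (Hspa5) and Grp94 (Hsp90b1), 49 of 64 founder comparisons and 35 of 40 F1 comparisons were called higher and 0 lower. The largest founder means in this list were Sdf2l1 (3.15 ± 0.38 log2, SD of 8 strains) and Dnajb9 (2.88 ± 0.21), and the smallest Dnajb11 (0.92 ± 0.19) and Dnajc3 (1.52 ± 0.10). Of the 6 UPR factors and sensors, 21 of 48 and 13 of 30 comparisons were called higher and 0 lower. Ddit3, the stress-induced factor CHOP, rose by a mean of 3.90 ± 0.39 in the founders and Atf4 by 1.21 ± 0.21. Ern1 and Atf6, which encode ER stress sensors, averaged 0.40 ± 0.33 and 0.38 ± 0.20 and were each called in 1 strain.

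Of 19 listed partners of oxidative folding, 8 of 148 founder comparisons and 7 of 93 F1 comparisons were called higher and 0 lower, and the calls came from Creld2 and Erp44 alone. Creld2, an ER-resident protein, changed by 2.64 ± 0.40 and was called in 6 strains, and Erp44, a chaperone that retains Ero1 in the ER, by 0.68 ± 0.16 and was called in 2. The sulfhydryl oxidase Qsox1 and the peroxidase Gpx7 lay lowest, at -0.17 ± 0.08 and -0.17 ± 0.23, with no call. In the calnexin cycle (9 genes), 5 of 72 founder and 6 of 45 F1 comparisons were called higher and 0 lower, all of them for Calr (0.81 ± 0.14) and Canx (0.59 ± 0.11). Ganab and Tapbp, the latter a partner of Pdia3 in peptide loading, were at -0.04 ± 0.09 and -0.28 ± 0.10.

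The 11 collagen hydroxylases and P4hb partners gave 0 calls in either direction in 88 founder and 55 F1 comparisons. P4ha1, the catalytic subunit that pairs with P4hb, averaged 0.11 ± 0.10 and Mttp, the lipid transfer protein that also needs P4hb, 0.10 ± 0.10, and Crtap and Plod1 were lowest at -0.36 ± 0.11 and -0.34 ± 0.08. The 11 thiol enzymes of cytosol and mitochondria gave 0 calls in 88 founder comparisons and 1 higher (Txn1, thioredoxin, named after its value was seen) and 0 lower in 55 F1 comparisons. Txnrd1 (0.18 ± 0.15) and Prdx3 (0.10 ± 0.15) were highest and Glrx (-0.44 ± 0.18) and Gsr (-0.36 ± 0.18) lowest. For the hydroxylases and the thiol enzymes the counts of calls were near the share of all genes called. These counts therefore do not set either list apart from other genes. The median change of a list in a founder strain was 1.48 to 2.09 for chaperones, 0.73 to 0.94 for UPR factors, 0.08 to 0.33 for folding partners, 0.07 to 0.18 for the calnexin cycle, -0.16 to 0.02 for hydroxylases and -0.34 to 0.20 for thiol enzymes, beside -0.04 to 0.01 for all genes.

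**Figure D5:**
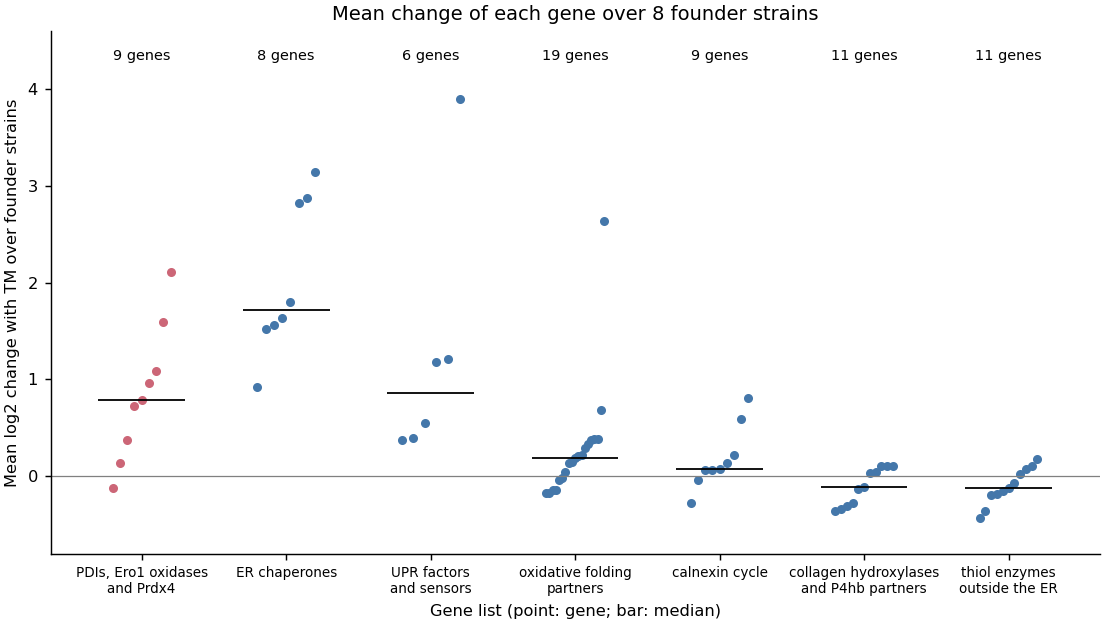
Mean log2 change with TM over 8 founder strains (y axis) of each gene by list, with the 9 PDI, Ero1, thioredoxin domain and Prdx4 genes in red. Points are genes and bars are list medians, and only chaperones, UPR factors, Creld2 and the upper members of the red group lie above 1.

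The genes whose signal followed 3 of the 9 genes most closely were listed as a description over 40 founder libraries, which share strain, treatment and depth. For Pdia4 they were Hspa5, Herpud1 and Hsp90b1, with Pearson r of 0.97, 0.97 and 0.97, and 0.98, 0.98 and 0.99 over the 28 F1 libraries. For P4hb they were Rpn1, a subunit of the oligosaccharyltransferase (0.94 and 0.93), Zfp330 (0.91 and 0.88) and Srp68, part of the signal recognition particle (0.91 and 0.80). For Ero1l they were Azin1 (0.93 and 0.79), Mei4 (0.92 and 0.84) and Cdyl (0.90 and 0.84).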

How the data were processed

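RNA from 68 MEF cultures of 13 genotypes was sequenced as single-end mRNA-seq. Per the labels and the study's methods, reads were trimmed with Trimmomatic and aligned with TopHat 1.4.1 to strain-specific genomes made from GRCm38 (mm10). The authors scaled libraries with TMM in edgeR, dropped libraries away from their own condition and scaled again. The study's methods do not say whether founders and F1 crosses were scaled together or apart. The deposited signal is named FPKM, and the tests were planned for FPKM. In all 68 libraries, values up to 1000 steps were whole multiples of 1 step per library, within 0.1 of a step. The signal is therefore reads scaled to a TMM-adjusted library size and not divided by length. Whole reads were recovered in 66 libraries. In the other 2, PWK TM replicate 2 and WSB TM replicate 1, the steps were 0.100752 and 0.100521. A rule set such steps, close to 0.1, aside as possible rounding of the values. These 2 libraries were therefore left out of tests on reads. F1 tables also hold 3 lines with no gene (15.5% to 24.1% of signal), which were left out.

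Values were read in Python 3.11.15 and tested in R 4.3.3 with limma 3.58.1 (eBayes with trend) on log2(signal + 0.1), over genes at 0.5 or more in at least 2 libraries, within each genotype, with Benjamini-Hochberg adjustment over all genes tested. Interaction and control levels were tested by moderated F over 40 founder or 28 F1 libraries. edgeR 4.0.16 and DESeq2 1.42.0 on recovered reads, other pseudocounts, filters, scalings and thresholds, a replicate block and each library left out were alternatives, and the scripts were tested on simulated data. In xWSB the deviations of same-numbered control and TM libraries correlated at 0.13 to 0.27 in all 3 pairs. A replicate block is therefore given beside its calls. In no other genotype with 3 pairs were all above 0.1, and NZO had 0.23 and 0.25 in its 2 pairs. The pairs of a genotype share group means, so these weak correlations do not show that replicate numbers pair the libraries. Lowest chi-square per degree of freedom between replicates was 1.87, so none was counted as a duplicate.

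The genes and lists were chosen with earlier results of these data known. All 9 genes are named, and from each list the 2 highest and 2 lowest mean founder changes. Pdia2 and Vkorc1, and the markers Aif1 and Epcam, had no listed values. The F1 set lacked further markers, with 3 of 8 myeloid and 3 of 5 epithelial markers listed. Gene positions and names came from GENCODE M21 (GRCm38).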

Additional observations from a re-analysis of the deposited data

Results flagged for a closer look

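Pdia4 was the 1 gene of the 9 whose change with TM differed between founder strains in the test of the difference itself (strain by treatment interaction, moderated F test in limma, adjusted p = 0.00464 over 13197 genes). It ranked 18th of all genes by that test. The log2 change was 1.19 ± 0.13 (SE) in 129, 1.28 ± 0.08 in PWK, 1.44 ± 0.11 in CAST, 1.60 ± 0.10 in NOD, 1.64 ± 0.19 in A, 1.71 ± 0.08 in B6, 1.85 ± 0.13 in NZO and 2.01 ± 0.13 in WSB. The control level of Pdia4 differed between strains too (adjusted p = 2.18e-07), and the part of the control level in the difference of the changes was not tested. The call was lost in edgeR on recovered reads (adjusted p = 0.0318) and in 14 of 40 fits that left out 1 library (adjusted p 0.00155 to 0.0263 over the 40). The edgeR test also lacked PWK TM replicate 2 and WSB TM replicate 1, for which no reads were recovered. Among the crosses the moderated F test in limma gave an adjusted p of 0.79.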

How the results depend on the processing

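In place of 32 founder and 23 F1 calls there were 10 and 13 without a trend in limma's prior variance, 19 and 16 at a 2 fold limit, 25 and 23 without the filter on low values, 38 and 25 at an adjusted p of 0.05, 29 and 23 in edgeR and 42 and 27 in DESeq2 on recovered reads. The cause of these shifts was not tested, other than for the stricter or looser thresholds. Leaving out 1 library gave 29 to 36 founder calls, 18 to 25 F1 calls, 0 to 1 genes in the founder interaction, 2 to 4 in founder control level, and 0 to 1 in F1 control level, the 1 being found without xWSB control replicate 1. The founder interaction counted 0 genes in edgeR and the control level counted 5 founder genes and 1 F1 gene at an adjusted p of 0.05. Over 117 changes, the settings other than leaving out 1 library in turn (edgeR and DESeq2 included, which lacked the 2 libraries with no recovered reads) gave 1144 values on the same side of the threshold, 45 newly past it, 80 no longer past it and 0 of opposite sign, and leaving out a library gave 494, 16, 92 and 10. The 10 of opposite sign were uncalled values, with leave-one-out ranges for Prdx4 of -0.12 to 0.43 in A, -0.21 to 0.19 in CAST, -0.36 to 0.12 in NOD, -0.17 to 0.17 in NZO, -0.031 to 0.13 in PWK, -0.044 to 0.22 in x129 and -0.019 to 0.27 in xNZO, and for Txndc5 of -0.14 to 0.015 in NOD.

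Among the 5 genotypes with 3 pairs, xWSB alone had deviations that correlated above 0.1 in every pair. Same-numbered control and TM libraries had a median correlation of deviations of 0.0125 over 29 pairs, 9 above 0.1 and 7 below -0.1. With a replicate block there were 24 founder calls in the 6 strains that can carry it, against 21 there without the block, and 17 F1 calls against 23, with 7 calls gained and 10 lost in all, and 0 genes passed either interaction. With a block shared by all genotypes, chosen after seeing the data, control level differed for 3 founder and 0 F1 genes. A block inside each genotype was not run for control levels, since it cannot be told apart from the genotype. Ero1lb had the fewest reads of the 9 genes, down to 27 in a founder control, which limits the precision of its values.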

Other observations

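Within a genotype and treatment, some of the 9 genes moved together from library to library. Each gene's log2 deviation from its group mean was compared over 40 founder libraries in 16 groups, as a description, since libraries of a group share their mean. Pdia6 and P4hb deviated together (Pearson r = 0.95), as did Pdia6 and Prdx4 (0.87) and Pdia3 and Prdx4 (0.79), while Pdia6 went against Txndc11 (-0.84) and Ero1l (-0.66). Over 28 F1 libraries the values were 0.88, 0.70, 0.48, -0.13 and -0.59. In A control replicate 1 Pdia6 stood 0.66 above its group mean, Prdx4 0.58 and Pdia3 0.48, with Pdia4 at 0.10 and Txndc11 at -0.30. In NZO TM replicate 3 Pdia6 stood 0.57 above, Prdx4 0.44 and Txndc11 at -0.16. Both libraries were among those farthest from their groups over all genes, with median differences of 0.44 and 0.41 on the log2 scale. The part of such whole-library shifts in these correlations was not tested. The deviation of summed fibroblast markers had r = 0.10 with that of Pdia6 in the founders and 0.25 in the F1 libraries. Over the 9 genes this r ran from -0.44 (Ero1l) to 0.48 (Pdia4) in the founders. In the F1 libraries it ran from -0.57 (Ero1l) to 0.47 (Pdia4). The part of cell composition in the correlations was not tested. Pdia4 followed Pdia6 with r = 0.49 in the founders and 0.31 in the F1 libraries.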
